A study of Mus musculus with 12 samples.

Results

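The transcripts of 10 genes for chromatin and DNA methylation enzymes were measured in the brains of Nsd2 knockout (KO) and wild-type (WT) mouse embryos. The genes were chosen by name, with earlier results of these data known: the H3K36 demethylases Kdm2a, Kdm2b, Kdm4a and Kdm4c, the 3 core subunits of Polycomb repressive complex 2 (PRC2), Ezh2, Eed and Suz12, and the DNA methyltransferases Dnmt1, Dnmt3a and Dnmt3b. All 10 were found among the 46078 genes of the count tables, and all 10 had enough counts to be tested in every comparison. RNA was taken from brains at E15.5, a stage of embryonic neurogenesis, of KO males, WT males, KO females and WT females, with 3 animals and 3 libraries in each group and 12 libraries in all. KO embryos carried a CRISPR/Cas9 deletion of the whole coding sequence of Nsd2, WT embryos did not, and all mice were on the C57BL/6 background, with no treatment named. The methods name no Cre or promoter that would limit the deletion to some cells, and the number of founder lines behind it is not given in the sources used here. The comparisons ask whether enzymes that remove H3K36 methylation, or that write the marks known to respond to it, differ in mRNA level when an H3K36 methyltransferase is lost.

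NSD2 adds methyl groups to lysine 36 of histone H3, mainly to the dimethylated state (H3K36me2). KDM2 enzymes remove mono- and dimethylation and KDM4 enzymes remove di- and trimethylation at this residue, so both counteract such writers. PRC2 methylates lysine 27 of the same histone tail, and H3K36 methylation on a nucleosome hinders it. DNMT3A and DNMT3B bind methylated H3K36 through their PWWP domains and set new DNA methylation, while DNMT1 copies existing methylation at replication. In the embryonic brain, Ezh2 and Dnmt1 are known for their place in dividing neural progenitors, and Dnmt3a for its place in neurons.

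Library totals lay between 40398665 and 59304196 counts, and levels are given as CPM, which are counts scaled to library size in 1 scaling of all 12 libraries. Nsd2, named Whsc1 in the tables, had 1.33, 0.905 and 1.28 CPM in KO males, against 379, 363 and 364 CPM in WT males, and 1.46, 1.49 and 2.67 CPM in KO females, against 407, 410 and 348 CPM in WT females, so every library matched its labelled genotype. As a check of the tissue, 7 neuronal markers were detected in every library and summed to between 5339 and 5943 CPM. They show neural tissue but cannot tell brain from other parts of the nervous system. The libraries differed in the Hox genes, which are active from the hindbrain backwards. Hoxa5 had 0.0885, 13.2 and 0 CPM in KO males, against 0.87, 43.6 and 53.8 CPM in WT males, and 0.182, 46.2 and 38.5 CPM in KO females, against 0.127, 0.0754 and 52.9 CPM in WT females. The 19 Hox genes tested in males all had fold changes below 0 and 21 of the 22 tested in females had fold changes above 0, none past the test, and the members were fitted again with the Hox level as a covariate. Male and female libraries came as separate tables, and either of 2 versions of the rRNA depletion kit and either of 2 sequencers were used. Which library had which is not given in the sources used here, so preparation could not be entered as a term, and sex and preparation cannot be told apart. Libraries of 1 group differed by a chi-square of 25 to 58.14 per gene in males and of 51.87 to 279 per gene in females, with the highest values for KO female 3 against KO females 1 (188) and 2 (279) and for WT female 3 against WT female 2 (173.7). Whether preparation differed inside a group was not tested.

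Per kilobase of annotated exon, the members ran from Kdm4a at 30.6 ± 2.67 CPM per kb to Dnmt3b at 0.784 ± 0.126 CPM per kb (mean ± SD, n = 12 libraries of both genotypes). Dnmt1 followed Kdm4a at 26.3 ± 2.67 CPM per kb, and the lowest and highest libraries of these genes overlapped. Ezh2 (18.5 ± 2.36), Suz12 (17.2 ± 2.02), Dnmt3a (13.9 ± 1.36) and Kdm2b (13.4 ± 0.782 CPM per kb) formed the middle, each overlapping its neighbour in this order. Kdm2a stood at 9.0 ± 0.859 CPM per kb, below every library of Kdm2b. Kdm4c (5.53 ± 0.272) and Eed (4.81 ± 0.446 CPM per kb) overlapped each other. Dnmt3b, an enzyme known from early embryos and stem cells more than from neural tissue, was below every other member in every library. The order depends on the length used: divided by the longest annotated transcript, Ezh2 came first at 44.4 ± 5.67 CPM per kb, ahead of Kdm4a at 37.9 ± 3.31 and Dnmt1 at 33.0 ± 3.36 CPM per kb. Exons of 5 members share bases with a gene on the opposite strand, up to 6.82% in Eed, 5.77% in Kdm2b and 3.6% in Suz12, and since the strand setting of the counting is not stated, reads there could be counted for either gene.

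The PRC2 core is described first because its 3 genes had the smallest p-values among the members over both sexes. Their promoter sequences are shown as the regulatory regions of 3 genes whose levels varied together among animals of the same group, as those of most members did. The 250 bases before the RefSeq start of each gene (build GRCm38.p6) are printed 5′ to 3′ on the gene's strand, in lower case, with each CG dinucleotide, the site that DNA methyltransferases act on, in capitals. They lie at chr6:47595031-47595280 (minus strand) for Ezh2, chr7:89980977-89981226 (minus strand) for Eed and chr11:79992856-79993105 (plus strand) for Suz12.
Ezh2: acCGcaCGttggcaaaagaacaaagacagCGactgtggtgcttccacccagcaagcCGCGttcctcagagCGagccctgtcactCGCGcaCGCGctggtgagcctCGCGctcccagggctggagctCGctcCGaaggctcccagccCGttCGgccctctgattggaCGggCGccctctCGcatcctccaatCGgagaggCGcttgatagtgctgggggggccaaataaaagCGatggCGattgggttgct
Eed: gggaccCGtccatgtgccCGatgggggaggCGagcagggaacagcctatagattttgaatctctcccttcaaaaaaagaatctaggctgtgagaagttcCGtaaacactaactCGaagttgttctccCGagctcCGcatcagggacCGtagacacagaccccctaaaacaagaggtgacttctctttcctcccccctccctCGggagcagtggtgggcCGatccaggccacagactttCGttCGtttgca
Suz12: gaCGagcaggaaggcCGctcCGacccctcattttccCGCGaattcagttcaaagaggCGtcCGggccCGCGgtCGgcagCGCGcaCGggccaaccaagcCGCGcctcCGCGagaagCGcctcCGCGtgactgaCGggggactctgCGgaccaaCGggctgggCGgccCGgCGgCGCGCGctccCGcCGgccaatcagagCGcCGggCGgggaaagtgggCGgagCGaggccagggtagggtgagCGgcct
The full windows of 300 bases, which add the first 50 after the start, held 31 CG in Ezh2, 17 in Eed and 41 in Suz12, against a median of 7 in the 32851 windows of the RefSeq promoter table. Over the 9 members with a window in that table, 15 of 17 windows were above this median. Letters of E2F sites, the sites of cell cycle transcription factors, were searched on both strands as TTTCCCGC, TTTGGCGC, TTTGCCGC and TTTCGCGC. They were found in 1 window each of Ezh2, Suz12 and Dnmt1, thus in 3 of 17 member windows, against 2.26% of all windows. Each searched word holds a CG, most member windows were rich in CG and some windows of 1 gene overlap. The share of all windows is therefore not a matched background. In Suz12 the match begins 219 bases before the start, in the printed stretch, and in Ezh2 it lies after the start. A match of letters is a description of the sequence and no evidence of a bound factor.

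Ezh2, the catalytic subunit of PRC2, was on average 18.2% higher in KO brains over both sexes, but did not pass the test. It had 148, 121 and 139 CPM in KO males, against 129, 90.8 and 122 CPM in WT males, and 127, 126 and 142 CPM in KO females, against 105, 119 and 115 CPM in WT females. In females the lowest KO library was above the highest WT library, whereas in males KO 2 lay below both WT 1 and WT 3. The log2 fold change was 0.26 in males (SE 0.14, adjusted p = 0.503), 0.22 in females (SE 0.089, adjusted p = 0.632) and 0.24 over both sexes (SE 0.0827, adjusted p = 0.202; edgeR's quasi-likelihood test, Benjamini-Hochberg over all genes). In bulk brain RNA, more cells that express a gene and more RNA per cell cannot be told apart. The p-values measure the spread between these animals.

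Suz12, the subunit that holds the complex together on chromatin, had 100, 83.2 and 98 CPM in KO males, against 87, 72.3 and 75.1 CPM in WT males, and 87.3, 77.9 and 101 CPM in KO females, against 79.6, 83.6 and 75.1 CPM in WT females. KO 2 was the lowest KO library in each sex and lay within the WT range, so the groups overlapped. The log2 fold change was 0.27 in males (SE 0.0966, adjusted p = 0.348), 0.16 in females (SE 0.108, adjusted p = 0.769) and 0.21 over both sexes (SE 0.0744, adjusted p = 0.211, edgeR's quasi-likelihood test). In females the value of Suz12 was 0.06 without KO female 3 and 0.24 without KO female 2. Eed, which binds trimethylated H3K27 and stimulates the catalytic subunit, was the least abundant of the 3 per kilobase, with 20.8, 18.5 and 17.9 CPM in KO males, against 19.9, 15.2 and 17.2 CPM in WT males, and 19.7, 19.9 and 20.1 CPM in KO females, against 16.6, 18.2 and 17.0 CPM in WT females. The female KO libraries were all above the female WT libraries and nearly equal among themselves, while WT male 1 lay above 2 of the KO males. The fold change of Eed on the log2 scale was 0.13 in males (SE 0.117, adjusted p = 0.696), 0.21 in females (SE 0.0876, adjusted p = 0.658) and 0.17 over both sexes (SE 0.0697, adjusted p = 0.304, edgeR's quasi-likelihood test). In males the value of Eed was 0.04 when WT male 2 was left out, 0.065 when KO male 1 was and 0.24 when WT male 1 was.

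**Figure D1:**
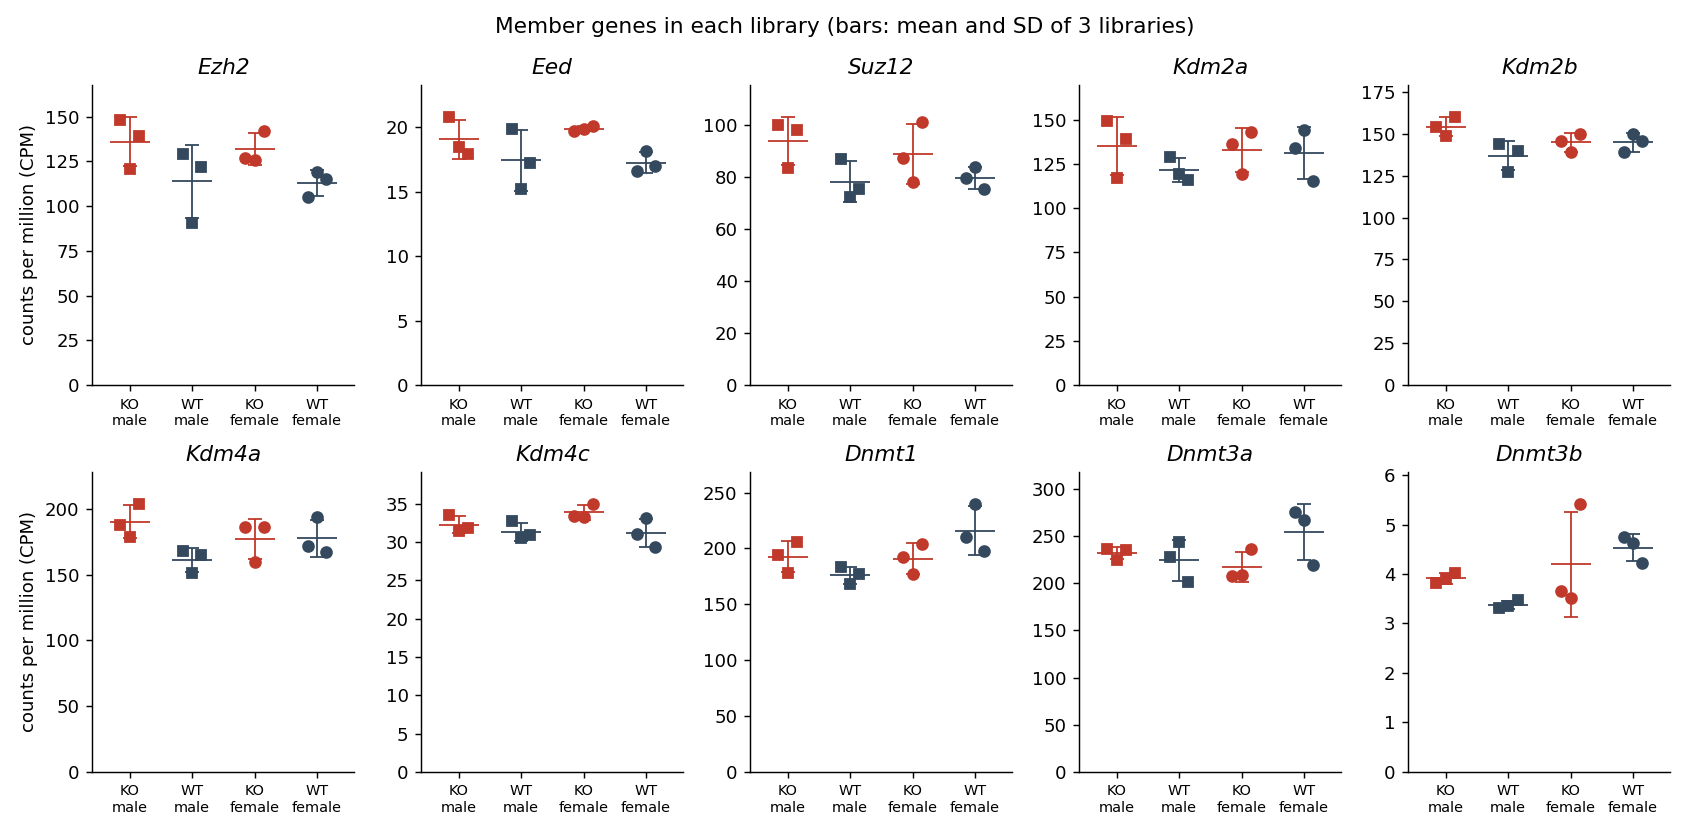
Level of the 10 member genes in CPM (vertical axes, from 0) in each of 12 libraries, with KO in red and WT in dark blue, males as squares and females as circles, and the mean and SD of 3 libraries as bars. For Ezh2, the 3 KO females lie at 126 to 142 CPM and the 3 WT females at 105 to 119 CPM, while the male groups overlap.

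The 3 PRC2 genes were the only members with an unadjusted p under 0.05 over both sexes (0.0117 for Ezh2, 0.0308 for Eed and 0.0131 for Suz12 in edgeR's quasi-likelihood test), a level that 13.7% of all tested genes reached. The median of their log2 fold changes was 0.26 for the males, 0.21 for the females and 0.21 over both sexes, where the median of all tested genes was between -0.01 and 0.01. The male value was lower in some alternative fits and higher in others, and ran from 0.12 to 0.35 when each male library was left out in turn. With the mean Hox level as a covariate the male median was 0.06, and without WT male 2, the lowest library for all 3 genes among males, it was 0.12. In females the median was 0.17 without KO female 3 and at most 0.24 with another female library left out. Over both sexes it was between 0.18 and 0.26 when each library was left out in turn, and the fold changes with the Hox covariate were 0.24 for Ezh2, 0.17 for Eed and 0.21 for Suz12.

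Over both sexes the markers of dividing progenitors had fold changes above 0, as the PRC2 genes did, and none was called in either sex or over both. Of all tested genes 49.4% lay below 0 over both sexes. The summed level of Ezh2, Eed and Suz12 was 269, 223 and 255.3 CPM in KO males, against 236.1, 178.2 and 213.8 CPM in WT males, and 234.2, 224 and 263.3 CPM in KO females, against 200.8, 220.4 and 207.5 CPM in WT females. The 10 cycling progenitor markers (among them Mki67 and Top2a) summed to 938.9, 734.8 and 945.2 CPM in KO males, against 864.6, 667.8 and 854.8 CPM in WT males, and to 774.7, 694.7 and 872.7 CPM in KO females, against 597.2, 910.5 and 751.9 CPM in WT females. The median log2 fold change of these 10 markers was 0.12 over both sexes, Pcna was below 0 in males (-0.05) and Mki67 in females (-0.16), and the groups overlapped in each sex. The 3 intermediate progenitor markers, Eomes, Neurog2 and Btg2, also had fold changes above 0 (median 0.25), with sums of 176.5 to 216.1 CPM in KO males, against 118.4 to 181.7 CPM in WT males, and 156.4 to 234.9 CPM in KO females, against 108.2 to 198.1 CPM in WT females. Other cell types had values on the other side of 0. The 4 oligodendrocyte lineage markers (Olig1, Olig2, Pdgfra and Sox10) had fold changes below 0 in each sex, and the median was -0.57 in males and -0.19 in females, or -0.39 when the sexes were fitted together. They summed to between 74.77 and 88.54 CPM in KO males, against 98.1 to 153 CPM in WT males, the highest in WT male 2. The male sums did not overlap, and of single genes 8.83% had all KO males below all WT males. In females the sums overlapped, at 59.55 to 99.24 CPM in KO against 77.81 to 121.3 CPM in WT. In males Olig1 had a log2 fold change of -0.75 (unadjusted p = 0.00368, adjusted p = 0.194, edgeR's quasi-likelihood test). Sox10, named after its value was seen, had -1.29 in males (unadjusted p = 0.015, adjusted p = 0.304, same test). Its level was low, at 1.59 to 3.1 CPM in KO males against 3.83 to 9.57 CPM in WT males. Of the 7 neuronal markers 6 were below 0 over both sexes, with a median of -0.12. Of the 8 radial glia markers 6 were above 0 over both sexes, with a median of 0.11, while in males Fabp7 had -0.285 and Slc1a3 -0.306, both with an unadjusted p under 0.05 and neither called. No marker of these lists was at 0 in any library. WT male 2, with the lowest PRC2 sum, had the highest sum of 4 meningeal genes (866.3 CPM). The part of cell composition in the PRC2 values was not tested.

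**Figure D2:**
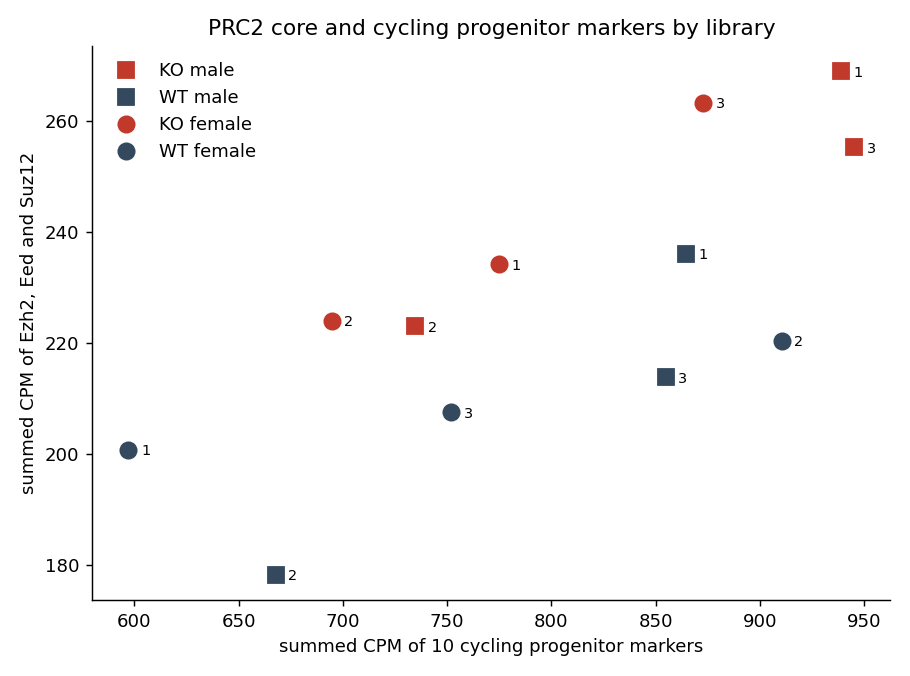
Summed level of Ezh2, Eed and Suz12 (vertical axis, CPM, starting above 0) against the summed level of 10 cycling progenitor markers (horizontal axis, CPM, starting above 0) in 12 libraries, numbered by replicate, with KO in red, WT in dark blue, males as squares and females as circles. WT male 2 is lowest in PRC2 at 178.2 CPM, and WT female 2 has a high marker sum of 910.5 CPM with a PRC2 sum of 220.4 CPM.

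Among the H3K36 demethylases, Kdm4a and Kdm2b were higher in every KO male than in every WT male, a pattern that 8.47% of all genes showed. In females the libraries of these 2 genes overlapped. Kdm4a, a JmjC demethylase of H3K9 and H3K36, had 188, 179 and 204 CPM in KO males, against 168, 151 and 165 CPM in WT males, and 186, 160 and 186 CPM in KO females, against 172, 194 and 167 CPM in WT females. WT female 2 was the highest female library and KO female 2 the lowest. The log2 fold change of Kdm4a was 0.24 in males (SE 0.0723, unadjusted p = 0.0101, adjusted p = 0.273) and -0.004 in females (SE 0.103, adjusted p = 0.996), and edgeR's quasi-likelihood test did not call the difference of these effects (log2 -0.24, SE 0.124, adjusted p = 0.91). With the Hox level as a covariate the male value was 0.14 (SE 0.0796). Kdm2b, which demethylates H3K36me2 and brings a PRC1 complex to unmethylated CG islands, had 154, 149 and 160 CPM in KO males, against 144, 127 and 140 CPM in WT males, and 146, 139 and 150 CPM in KO females, against 139, 150 and 146 CPM in WT females. The female libraries of the 2 genotypes covered the same range. Its log2 fold change was 0.17 in males (SE 0.0661, unadjusted p = 0.0303, adjusted p = 0.366) and 0.001 in females (SE 0.0802, adjusted p = 0.998, edgeR's quasi-likelihood test), and the male value was 0.09 with the Hox covariate and 0.12 without WT male 2. For Kdm2b the difference of the effects between the sexes, log2 -0.17, was not called either.

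Kdm2a, the relative of Kdm2b, had 149, 117 and 139 CPM in KO males, against 129, 119 and 116 CPM in WT males, and 136, 119 and 143 CPM in KO females, against 134, 144 and 115 CPM in WT females. Both genotypes held high and low libraries, and KO 2 was the lowest KO library in each sex. Over both sexes the log2 fold change of Kdm2a was 0.08 (SE 0.0752, adjusted p = 0.697, edgeR's quasi-likelihood test), and 0.04 without KO male 1. In males alone it was 0.15, and 0.003 with the Hox covariate, 0.08 without KO male 1 and 0.25 without KO male 2. Kdm4c, a relative of Kdm4a with the same substrates, had the lowest level of the 4 per kilobase, with 33.5, 31.5 and 31.9 CPM in KO males, against 32.7, 30.5 and 30.9 CPM in WT males, and 33.4, 33.3 and 35.0 CPM in KO females, against 31.0, 33.1 and 29.4 CPM in WT females. The KO females were all above the WT females by a narrow margin, and the males overlapped. Its log2 fold change was 0.08 over both sexes (SE 0.0481, adjusted p = 0.496, edgeR's quasi-likelihood test). Over both sexes the 4 demethylases lay between 0.08 and 0.12, with intervals (95%) from -5.38% to 20.2%. Their median was 0.16 in males and 0.05 with the Hox covariate, and over both sexes it was 0.08 in both fits.

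The 3 DNA methyltransferases had fold changes above 0 in males and below 0 in females, with no call in either sex. Dnmt1, the maintenance enzyme, had 194, 178 and 206 CPM in KO males, against 183, 168 and 177 CPM in WT males, and 192, 177 and 204 CPM in KO females, against 210, 240 and 198 CPM in WT females. KO females 1 and 2 lay below all WT females and KO female 3 lay between them, while in males KO 2 fell among the WT libraries. Its log2 fold change was 0.13 in males (SE 0.0716, adjusted p = 0.502) and -0.17 in females (SE 0.106, adjusted p = 0.753, edgeR's quasi-likelihood test). The difference between these values, -0.30 (SE 0.126), had an unadjusted p of 0.0326, reached by 4.45% of all genes at the 0.05 level, and an adjusted p of 0.91 (edgeR's quasi-likelihood test). With the Hox level as a covariate the male value was 0.02 and the difference -0.15 (SE 0.131), and without WT female 2 the female value was -0.09.

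Dnmt3a, the main de novo enzyme of the developing brain, had 236, 225 and 235 CPM in KO males, against 228, 244 and 201 CPM in WT males, and 208, 209 and 236 CPM in KO females, against 276, 267 and 220 CPM in WT females. WT females 1 and 2 were the highest of all 12 libraries, and the lowest WT male was below every KO library. For Dnmt3a the log2 fold change was 0.05 in males (SE 0.0778, adjusted p = 0.831) and -0.23 in females (SE 0.116, adjusted p = 0.716, edgeR's quasi-likelihood test), and without WT male 3 the male value was -0.02. Dnmt3b was measured from few reads, 149 to 291 counts in a library, and had 3.81, 3.89 and 4.03 CPM in KO males, against 3.32, 3.35 and 3.47 CPM in WT males, and 3.65, 3.52 and 5.42 CPM in KO females, against 4.74, 4.63 and 4.23 CPM in WT females. The KO males were all above the WT males, and KO female 3 stood above every other library. Its log2 fold change was 0.21 in males (SE 0.133, adjusted p = 0.558) and -0.11 in females (SE 0.204, adjusted p = 0.926, edgeR's quasi-likelihood test), and without KO female 3 the female value was -0.335. Over both sexes the 3 enzymes lay between -0.09 and 0.05.

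Counted over the members, edgeR's quasi-likelihood test called 0 of 10 at an adjusted p under 0.05 in males, where 0.466% of all tested genes were called, 0 of 10 in females (0.0214% of all genes), 0 of 10 over both sexes (1.9%) and 0 of 10 for the difference between the sexes (0% of all genes). For that difference DESeq2 called 3 genes lower and 2 higher, the likelihood ratio test 1 and 4, and edgeR's quasi-likelihood test 4 lower and 18 higher without KO female 3 and 14 lower and 3 higher without WT female 3. DESeq2 and edgeR's likelihood ratio test also called 0 of 10 in each comparison. At an unadjusted p under 0.05 there were 3 members in males (Kdm2b, Kdm4a and Suz12), 2 in females (Ezh2 and Eed), 3 over both sexes (the PRC2 core) and 1 for the difference (Dnmt1), where 11.9%, 7.48%, 13.7% and 4.45% of all genes reached that level. The KO libraries lay all above the WT libraries for 3 members in males (Kdm2b, Kdm4a and Dnmt3b), against 8.47% of all genes, for 3 members in females (Ezh2, Eed and Kdm4c), against 7.79%, and for 0 members over both sexes, against 0.521%. No member had all KO libraries below all WT libraries, a pattern that 8.83% of all genes showed in males, 6.19% in females and 1.3% in the 2 sexes together. All 10 fold changes were above 0 in males, with a median of 0.16 on the log2 scale, and 6 of 10 in females, with a median of 0.01. Of all tested genes, 51.2% lay below 0 in males and 48.4% in females. The 10 values are not independent, since most members varied together among animals of the same group. Over both sexes the 95% intervals of the members ran from -16.2% at the lowest (Dnmt3a) to 33.8% at the highest (Ezh2), relative to WT.

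**Figure D3:**
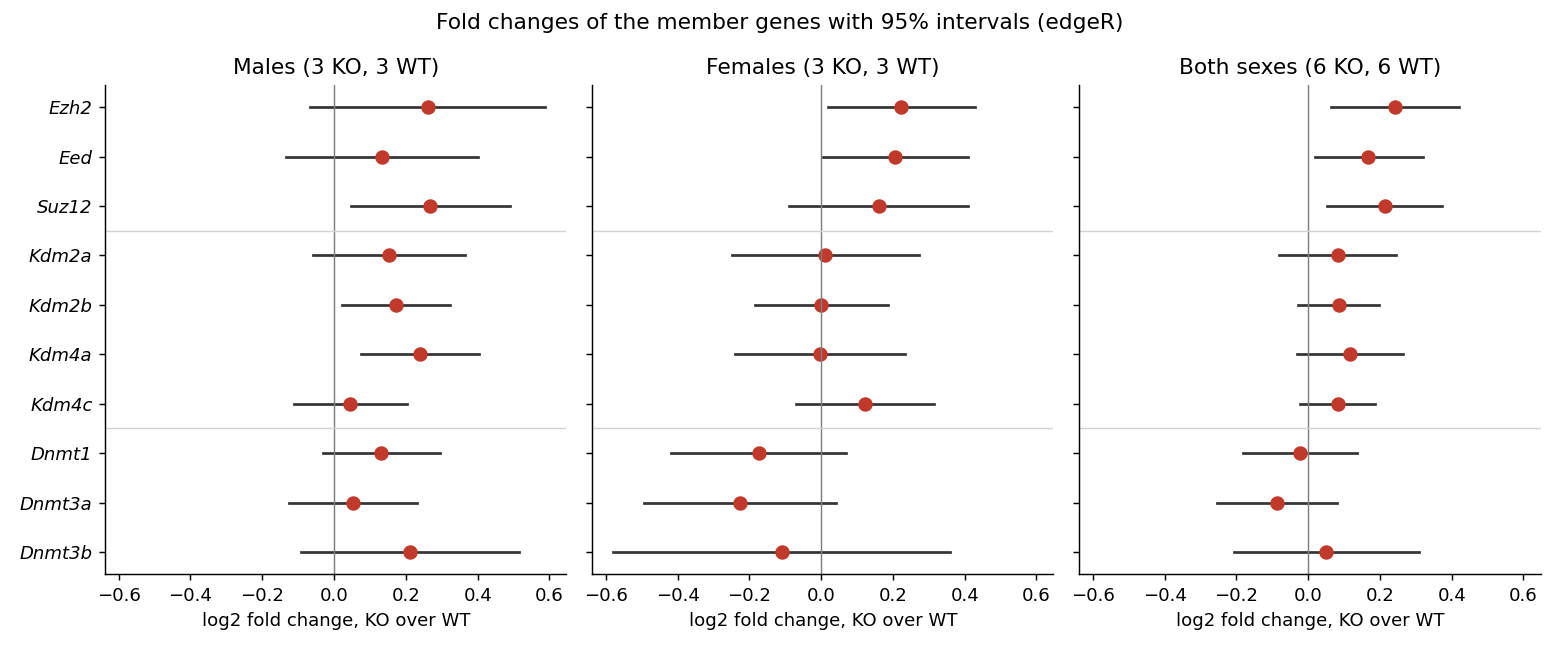
Log2 fold change of KO over WT (horizontal axes) for the 10 members, as red points with 95% intervals as lines, with 1 panel for males, 1 for females and 1 for both sexes. Over both sexes the intervals of Ezh2, Eed and Suz12 lie above 0, from 0.06, 0.02 and 0.05, those of the other 7 members include 0, and no member passed the adjusted test.

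The levels of most members varied together among animals of the same group. With group means removed, 41 of 45 pairs of members had a Pearson's r of log2 CPM above 0 over the 12 libraries, with a median of 0.575, given here as a description, since the points of a pair share library, depth scaling and cell makeup. The highest was 0.944 between Kdm4a and Dnmt1. Within PRC2, r was 0.82 for Ezh2 with Eed, 0.705 for Ezh2 with Suz12 and 0.559 for Eed with Suz12, and Kdm2b with Ezh2 reached 0.884. Negative values were those of Dnmt3a, at -0.207 with Ezh2, -0.164 with Kdm2b and -0.082 with Eed, and that of Eed with Dnmt3b (-0.015). The summed cycling progenitor markers had an r of 0.903 with Kdm2b, 0.833 with Ezh2, 0.795 with Kdm4a and 0.789 with Dnmt1, and of -0.091 with Dnmt3a. The summed radial glia markers had lower values, from -0.287 with Dnmt3a to 0.421 with Ezh2. The summed oligodendrocyte lineage markers had negative values with all 10 members, from -0.792 with Suz12, -0.784 with Kdm4c and -0.754 with Dnmt1 to -0.404 with Dnmt3a. Meningeal genes had values of -0.708 with Ezh2 and -0.636 with Kdm2b, and the Hox level had -0.711 with Kdm2a and -0.669 with Kdm4a.

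**Figure D4:**
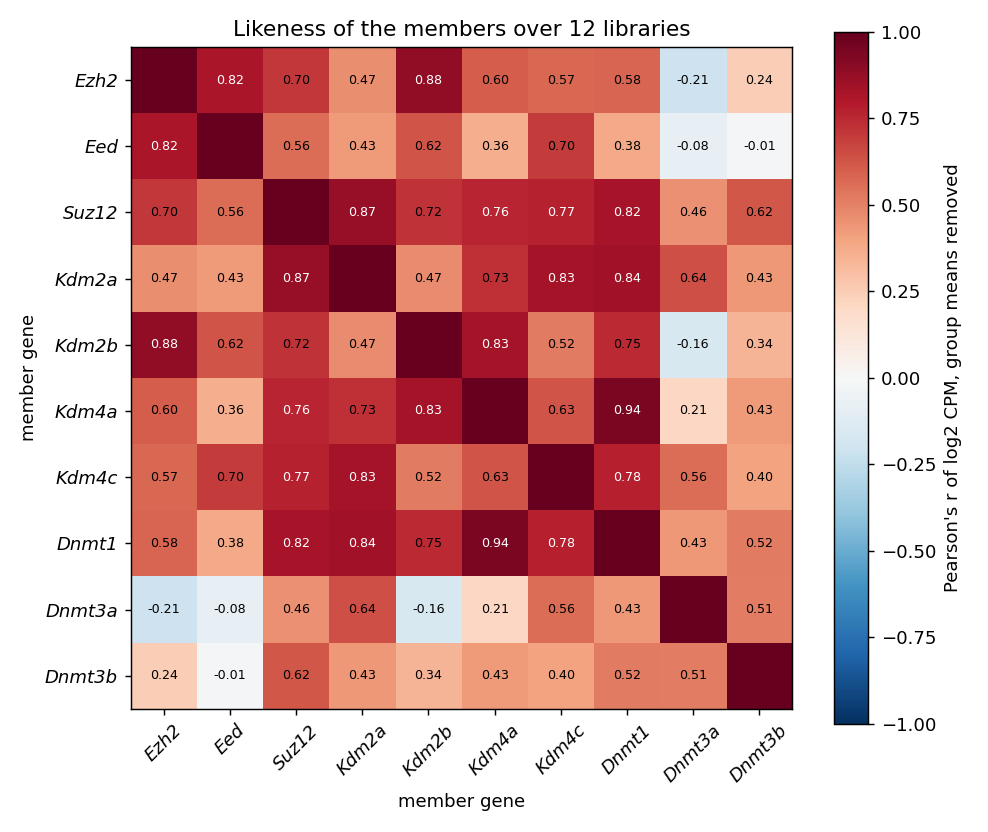
Pearson's r of log2 CPM between each pair of members (rows and columns) over 12 libraries after removal of the 4 group means, from blue (negative) to red (positive). Kdm4a with Dnmt1 is highest at 0.944, and Dnmt3a has the lowest values, down to -0.207 with Ezh2.

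Of 11929 genes with a mean of at least 5 CPM, the nearest to each member by this measure were as follows. The PRC2 genes lay nearest to Nfya (Ezh2, r = 0.974), Cbx1 (Eed, 0.947) and Nes (Suz12, 0.975), which encode a CCAAT-binding transcription factor subunit, a heterochromatin protein and the progenitor filament nestin. Nes is 1 of the 8 radial glia markers, whose summed level had an r of only 0.292 with Suz12. Kdm2a lay nearest to the splicing factor Sf3b1 (0.986), Kdm2b to the lamin Lmnb1 (0.975), Kdm4a to the adducin Add2 (0.961) and Kdm4c to the centriole gene Sass6 (0.951). The methyltransferases lay nearest to Ttf1 (Dnmt1, 0.969), Zcchc2 (Dnmt3a, 0.971) and Numbl (Dnmt3b, 0.945). These are the highest of many values over 12 libraries and carry no test.

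The other genes of the same pathways were taken from 8 lists, with 57 genes in the tables and 56 tested. Apart from Nsd2 itself, edgeR's quasi-likelihood test called 0 of them in each sex and over both sexes, where 0.466%, 0.0214% and 1.9% of all genes were called. Of the 11 genes listed as PRC2 partners and Ezh1, 8 had fold changes above 0 over both sexes and 3 below, where 49.4% of all genes lay below. Their median was 0.09 and the lowest value -0.845. In males AU022751, named after its value was seen, had -1.349 (unadjusted p = 0.0535, adjusted p = 0.427, edgeR's quasi-likelihood test), with at most 0.905 CPM in any library. On the log2 scale Rbbp4, a histone-binding subunit, differed by 0.17 (SE 0.0734, adjusted p = 0.342, edgeR's quasi-likelihood test), and Jarid2, a recruiting subunit, by 0.10. Named after their values were seen, Mtf2, a Polycomb-like subunit that binds CG-rich DNA, had 0.21 (SE 0.069, adjusted p = 0.193, edgeR's quasi-likelihood test), and Epop, listed as E130012A19Rik, had the highest value of this list at 0.48.

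Epop (E130012A19Rik), a PRC2 partner known from mouse embryonic stem cells, had 13.8, 11.6 and 14.5 CPM in KO males, against 9.79, 7.33 and 10.1 CPM in WT males, and 12.8, 10.7 and 17.2 CPM in KO females, against 9.92, 10.6 and 10.1 CPM in WT females. All 6 KO libraries lay above all 6 WT libraries, a pattern found in 0.521% of all genes, although KO female 2 exceeded the highest WT library only narrowly. The log2 fold change over both sexes was 0.48 (SE 0.117, unadjusted p = 0.00112, adjusted p = 0.055 in edgeR's quasi-likelihood test), just outside the threshold. DESeq2 called it (adjusted p = 0.00567), as did edgeR's likelihood ratio test (adjusted p = 0.0194), and over all alternatives its adjusted p ran from 0.00567 to 0.152. Without KO female 2 the adjusted p was 0.019.

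Among the 9 other genes of the PRC1.1 complex, in which KDM2B works, 8 had fold changes above 0 and 1 below, with a median of 0.02. Bcor, the corepressor of the complex, had 122, 97.7 and 107 CPM in KO males, against 80.8, 71.3 and 76.2 CPM in WT males, and 103, 89.5 and 117 CPM in KO females, against 95.4, 116 and 78.5 CPM in WT females. The male groups were well apart and the female groups overlapped. For Bcor the log2 fold change was 0.52 in males (SE 0.0918, adjusted p = 0.0597, range over alternatives 6.26e-05 to 0.605) and 0.10 in females (SE 0.157, edgeR's quasi-likelihood test). DESeq2 and the likelihood ratio test called Bcor in males. The catalytic subunit Rnf2 also had all 6 KO libraries above all 6 WT libraries, by a small margin, and edgeR's quasi-likelihood test gave a log2 value of 0.13 (SE 0.043, adjusted p = 0.199). Bcor and Rnf2 were named after their values were seen.

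**Figure D5:**
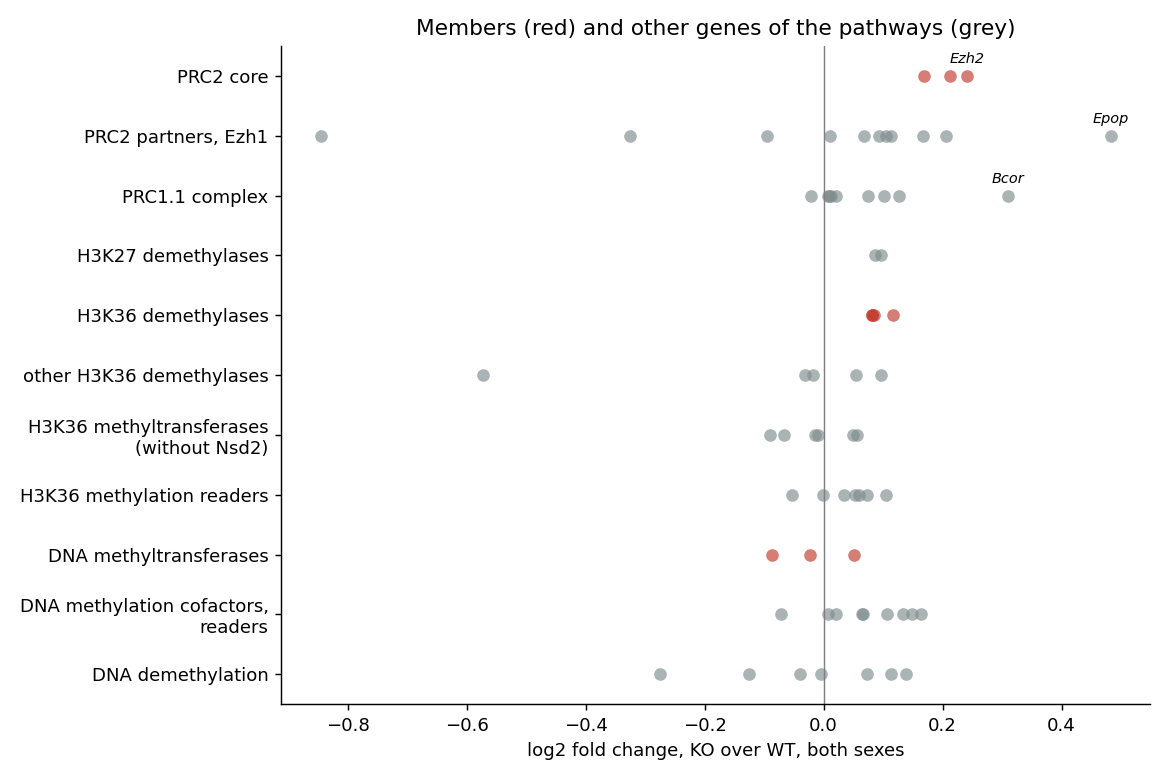
Log2 fold change of KO over WT over both sexes (horizontal axis) for the members (red) and the other tested genes of 8 pathway lists (grey), 1 point a gene and 1 row a list, without Nsd2. The PRC2 core lies between 0.17 and 0.24, Epop at 0.48 and Bcor at 0.31, and the DNA methyltransferases lie on both sides of 0.

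None of the enzymes that act against the members or beside them was called, apart from Nsd2. The H3K27 demethylases Kdm6a and Kdm6b, which remove the mark of PRC2, had log2 fold changes of 0.10 (SE 0.0599) and 0.09 (SE 0.131) over both sexes, with a 95% interval of -12.6% to 29.2% for Kdm6b. The sexes differed in sign: in males Kdm6a had 0.21 (SE 0.0606, unadjusted p = 0.00739, adjusted p = 0.251), with all KO males above all WT males, and Kdm6b 0.35 (SE 0.107, unadjusted p = 0.0109, adjusted p = 0.28), whereas in females they had -0.02 and -0.18 (edgeR's quasi-likelihood test). The test of the difference between the sexes gave -0.23 for Kdm6a (unadjusted p = 0.0514) and -0.52 for Kdm6b (unadjusted p = 0.0364), both with an adjusted p of 0.91 in edgeR's quasi-likelihood test. Of the 5 other H3K36 demethylases and relatives, 2 lay above 0 and 3 below, from -0.573 to 0.096 over both sexes. Kdm4b, a relative of Kdm4a, had -0.03 (SE 0.0584). Kdm4d, named after its value was seen, had -1.13 in males (SE 0.374, unadjusted p = 0.0156, adjusted p = 0.305, edgeR's quasi-likelihood test). Its KO males, at 0.23 to 0.408 CPM, lay below its WT males, at 0.409 to 0.803 CPM, as for 8.83% of all genes. In females its mean was 0.406 CPM in KO and 0.398 CPM in WT. Of 9 tested cofactors and readers of DNA methylation 8 lay above 0, with Mbd3 at 0.02 (SE 0.0539). Of 7 DNA demethylation genes 3 lay above 0, with the oxidase Tet3 at -0.005 (SE 0.122) and the glycosylase Tdg at -0.13 (SE 0.195). The 7 H3K36 methylation readers lay between -0.05 and 0.10, with Psip1 at 0.10 (SE 0.0575). The 6 H3K36 methyltransferases other than Nsd2 had fold changes between -0.09 and 0.06 over both sexes. Named after their values were seen, Nsd1 had 0.22 in males (SE 0.0672, unadjusted p = 0.0115, adjusted p = 0.283) and Setd2 0.19 (SE 0.0677, unadjusted p = 0.0223, adjusted p = 0.342, edgeR's quasi-likelihood test). For each, all KO males lay above all WT males, as for 8.47% of all genes. Setmar and Smyd2, named likewise, had -0.22 and -0.13 in males. In females, with Nsd2 counted, 6 of 7 lay below 0.

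Genes that PRC2 and DNA methylation keep silent were looked at in the same libraries. Of 10 Polycomb targets of other lineages, 3 had enough counts to be tested over both sexes, among them Gata6 at a log2 fold change of -0.05 (SE 0.293) and the cell cycle inhibitor Cdkn2b at 0.89 (SE 0.519), with 0.142, 0.213 and 0.375 CPM in KO males, against 0.124, 0.268 and 0.143 CPM in WT males, and 0.274, 0.354 and 0.168 CPM in KO females, against 0, 0.101 and 0.184 CPM in WT females. Of 12 germline genes that DNA methylation silences in somatic cells, 2 were tested, Ddx4 at -0.60 (SE 0.269, adjusted p = 0.349) and Dazl at -0.28 (SE 0.408, adjusted p = 0.83, edgeR's quasi-likelihood test). Neither list had a called gene, and the levels are so low that a change was detectable only if large. The Hox genes, known PRC2 targets as well, varied among the libraries of each group and had a median of -2.56 in the males, 0.95 in the females and -0.68 when the sexes were fitted together.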

How the data were processed

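RNA of 12 E15.5 mouse brains was measured. The authors trimmed reads (150 bp reads to 75 bp), removed adapters with cutadapt 2.6, aligned to mm10 with HISAT2 2.1.0 and quantified Ensembl transcripts with StringTie 2.0.6. The deposited tables hold gene counts as whole numbers without normalization, which StringTie's script derives from coverage; filters and the strand setting are not given in the sources used here.

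Genotypes were compared for males, for females, over both sexes with sex as a term, and between the sexes by an interaction, with edgeR 4.0.16 in R 4.3.3: filterByExpr (minimum count 10, minimum total 15), TMM, and the robust quasi-likelihood F test, fitted to all genes, with p-values adjusted by Benjamini-Hochberg and called under 0.05. Intervals are 95% intervals of that fit. CPM used 1 TMM scaling of the 12 libraries. Correlations used log2 CPM (prior count 2). Exon lengths came from GENCODE M21 (GRCm38), promoters from RefSeq (9 of 10 members matched). PCR copies are not removed, so counting error is a lower limit. The fits were run on simulated counts with changes larger than those of the members and the same spread for every gene. These runs therefore do not show how well changes of the members' size are found. Alternatives were RLE size factors, DESeq2 1.42.0, the likelihood ratio test, 2 other filters, the replicate block, the Hox covariate, a shared spread, transcript length and each library left out. The members and lists were chosen with earlier results of these data known. Named genes are the members, called genes of each other list (at most 6) or else its 2 most abundant, and the nearest gene of each member; others are marked, and 1 gene that this rule names is not reported here. Western blot and ChIP-seq data were not analysed here. Figures used Python 3.11.15.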

Additional observations from a re-analysis of the deposited data

How the results depend on the processing

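No alternative called a member: 0 of 10 passed in each of 66 alternatives. Of the member values, 343 of 360 with a library left out and 291 of 300 in other settings kept their direction; those that turned are given here. With the Hox covariate they were Kdm4c in males (-0.006), Kdm4a in females (0.064) and the sex differences of Kdm2a (0.087), Ezh2 (0.058) and Suz12 (0.059), and Kdm2b in females was -0.007 with RLE size factors, DESeq2 and no filter and -0.002 with the filter of more than 1 CPM in 3 libraries. Leaving out each library gave ranges that include 0 for the females' Kdm2a (-0.078 to 0.083), Kdm2b (-0.029 to 0.029), Kdm4a (-0.052 to 0.065) and Dnmt3b (-0.335 to 0.001), the males' Dnmt3a (-0.024 to 0.115), both sexes' Dnmt1 (-0.056 to 0.032) and Dnmt3b (-0.027 to 0.119), and the sex differences of Ezh2 (-0.152 to 0.109) and Eed (-0.047 to 0.172). Among the other named genes it gave Bcor in females (-0.038 to 0.245) and, over both sexes, Kdm4b (-0.052 to 0.008), Usp7 (-0.015 to 0.043), Mbd3 (-0.01 to 0.053), Tet3 (-0.072 to 0.071), Tdg (-0.291 to 0.024), Gata6 (-0.201 to 0.113), Mki67 (-0.01 to 0.234), Dcx (-0.008 to 0.082), Map2 (-0.047 to 0.014), Kdr (-0.037 to 0.078), Cdh5 (-0.17 to 0.019) and Hbb-bs (-0.12 to 0.164). With the Hox covariate Hoxb5 was 0.054.

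The male PRC2 median was 0.063 with the Hox covariate, against 0.261, the male H3K36 demethylase median 0.048, against 0.163, the male DNA methyltransferase median 0.021, against 0.131, and the sex difference of the demethylase median 0.001, against -0.153. Of the pathway genes, 1 was called over both sexes by DESeq2, the likelihood ratio test and the filter of more than 1 CPM (Epop), and 0 to 1 with a library left out: Epop without KO female 2 and Bcor without WT female 2. By transcript length 3 members kept their place in the order of levels. The cause of these shifts was not tested.

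Whether the replicate numbers pair the animals is not given in the sources used here. Same-number KO and WT libraries had correlations of -0.053 to 0.195, and other pairs -0.225 to 0.212. With 3 libraries a group these values cannot settle it. With the replicate block 0 members were called, Ezh2 in males was 0.272 (adjusted p = 0.104) and Tet3 over both sexes was 0.010. Epop (adjusted p = 0.0405) and Bcor passed in males in that fit (edgeR's quasi-likelihood test).

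Counts over all genes, on which the adjusted p of the members rests, moved more. In males 64 were lower and 23 higher, against 362 and 122 with DESeq2, 271 and 69 with the likelihood ratio test, 220 and 70 with the block and 11 and 7 with the Hox covariate. In females 2 were lower and 2 higher, against 130 and 50 with DESeq2, 64 and 30 with the likelihood ratio test, and 29 and 9 with the spread of all 12 libraries. Over both sexes 301 were lower and 74 higher, against 588 and 218 with DESeq2. For the difference between the sexes 0 were called, against 3 lower and 2 higher with DESeq2 and 1 and 4 with the likelihood ratio test. With a library left out, males gave 12 to 89 lower and 9 to 25 higher, females 1 to 35 and 0 to 23 (35 lower without WT female 3 and 23 higher without KO female 3), both sexes 163 to 316 and 38 to 80 (lowest without KO male 3), and the difference 0 to 14 and 0 to 18. Only 3 of 10 Polycomb targets and 2 of 12 germline genes had enough counts for a test over both sexes.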
